A study of Mus musculus with 24 samples.

Results

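Flavin monooxygenase transcripts were followed over the day in the mouse adrenal gland through 10 probe sets, out of 45101 on the array, whose annotated gene symbol is Fmo1, Fmo2, Fmo4 or Fmo5. Fmo1 had 1 probe set, Fmo2 had 5, Fmo4 had 1 and Fmo5 had 3. The 4 genes were chosen by the measured 24 h pattern of Fmo2 in these samples, known from earlier results, so that pattern is given as a description with no test. Tests were made on Fmo1, Fmo4 and Fmo5, and on Fmo2 where the question was another one.

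Flavin-containing monooxygenases are enzymes of the endoplasmic reticulum that carry bound FAD, take electrons from NADPH and add oxygen to nitrogen or sulfur atoms of drugs, food compounds and some thiols of the cell. Fmo2 is best known as the form of the lung, Fmo1 as a form of kidney and liver, and Fmo5 as a form of liver and intestine that can also insert oxygen into ketones. Fmo4 is a form of low abundance in the tissues in which it has been looked for. The adrenal gland makes steroids with enzymes that draw on the same NADPH, under daily control by the clock and by the hormone ACTH.

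RNA came from whole adrenal glands of male C57B/6J mice aged 3 months. After 2 weeks of 12 h light and 12 h darkness the mice stayed in constant darkness and were killed at 12 time points of 2 arrays each, spaced by 4 h, the first 38 h and the last 82 h after lights off. The 12 groups are untreated mice, named wt in the labels. Projected circadian time is the hours after lights off minus 12, modulo 24, which gives 6 circadian times (2, 6, 10, 14, 18 and 22), each sampled in a first cycle (38 to 58 h) and a second (62 to 82 h).

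The values are linear array signals. In 6 pairs of arrays, wherever both signals were 50 or more, the lower was at least 95% of the higher within rounding, and each such pair was averaged and counted as 1 sample, which left 18 profiles, 3 per circadian time. Their log2 ratios had SDs of up to 0.0418, against 0.217 to 0.516 for the remaining 30 pairs that share a circadian time. In 5 of the 6 pairs the arrays came from different cycles, so these profiles belong to no single cycle. The labels do not state whether the arrays stand for different animals, so the p-values cover a spread between arrays that may be technical. The arrays also fell into 2 sets by the added control transcript ThrX-3, with signals of 513 to 1858 on the 8 arrays of circadian times 10 and 18 (here called the second array set) and of 56.3 to 101 on the 16 arrays of circadian times 2, 6, 14 and 22 (the first array set). What separates the sets was not tested, and any difference between them cannot be told apart from a difference between those circadian times. One array of the second set, 78 h replicate 2, stood apart with a ratio of 5' to 3' Gapdh signal of 0.0386, and 4 profiles of that set had an Acta1 signal over 1000. All 7 adrenal cortex markers looked up were above the filter on low signals, from Nr5a1 with a median of 2794 to Hsd3b1 with 12889, and so were 5 of 5 chromaffin cell markers on the array.

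Fmo1, Fmo2 and Fmo4 lie on mouse chromosome 1, where the RefSeq gene table lists Fmo4, Fmo1 and Fmo2 one after another, and Fmo5 lies on chromosome 3. RefSeq's table of start sites (build GRCm38.p6) held windows for 3 of the 4 genes and none for Fmo1. The 250 bases before the start of Fmo2, the rhythmic member, and of Fmo4, which did not pass the test for a 24 h pattern and lies beyond Fmo1 in the same cluster, are shown because motifs of the clock and of steroid receptors were searched in them. Both genes are on the minus strand, and each sequence reads 5′ to 3′ along its gene. Capitals mark a motif match.
Fmo2, chr1:162898759-162899008, minus strand: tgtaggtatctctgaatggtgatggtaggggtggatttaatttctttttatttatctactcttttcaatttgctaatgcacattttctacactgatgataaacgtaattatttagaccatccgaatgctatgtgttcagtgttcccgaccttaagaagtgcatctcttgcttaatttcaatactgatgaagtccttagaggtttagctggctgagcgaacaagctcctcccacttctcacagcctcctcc
Fmo4, chr1:162812550-162812799, minus strand: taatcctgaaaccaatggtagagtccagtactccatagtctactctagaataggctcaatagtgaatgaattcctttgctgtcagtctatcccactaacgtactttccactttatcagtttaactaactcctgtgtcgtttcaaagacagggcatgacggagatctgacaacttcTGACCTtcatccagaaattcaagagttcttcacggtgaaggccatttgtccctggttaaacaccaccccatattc
The motifs, searched on both strands, were the E-box CACGTG, the D-box forms TTATGNAA and TTACGTAA, the nuclear receptor motif AGGTCA, the glucocorticoid receptor motif TGTTCT, and that receptor's palindrome, which is an inverted repeat of TGTTCT with 3 free bases between its arms and so overlaps it. The share of windows that hold each motif was counted over the same 250 bases. Of all 32851 windows in the table, 6.02% held CACGTG, 3.07% TTATGNAA, 0.113% TTACGTAA, 14% AGGTCA, 16.1% TGTTCT and 0.00913% the palindrome. The Fmo2 window shown held none of them, and the Fmo5 window (chr3:97628769-97629018, plus strand) held none either. The Fmo4 window held 1 AGGTCA, on the opposite strand, at position -75 from the start. A second annotated Fmo2 start, whose window is chr1:162898494-162898743, held 1 AGGTCA at position -9 and 1 TGTTCT on the opposite strand at position -125. In base composition the Fmo2 window shown was 39.6% G and C and that of Fmo4 42.4%, both under the lower quartile of 45.2% over all windows, and that of Fmo5 was 56.0%, above the median of 52.4%.

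Fmo2 was high at circadian times 14 and 18 of the projected night and low at 2 and 6, in the projected morning. Its brightest probe set, 1435459_at, had signals of 564, 568 and 659 at circadian time 2, 494, 317 and 573 at 6, 1121, 1143 and 1028 at 10, 1695, 1640 and 1743 at 14, 1822, 1997 and 2019 at 18, and 678, 758 and 1205 at 22. The profiles of circadian times 14 and 18 all lay above those of the other 4 times, and those of 2 and 6 all lay below the rest. On the log2 scale the means ran from 8.97 ± 0.40 at circadian time 6 to 10.96 ± 0.08 at 18 (SD, n = 3 each). In order, the times were 18, 14, 10, 22, 2 and 6. The neighbours 18 and 14, 14 and 10, and 22 and 2 did not overlap, whereas 10 and 22, and 2 and 6, did. Of these, 22 and 2, and 2 and 6, lie within the first array set. The other neighbours cross the array sets, so their differences cannot be told apart from one between sets.

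A cosine with a period of 24 h put the peak of 1435459_at at circadian time 15.9, in the earlier part of the projected night, with an amplitude of 0.99 ± 0.09 (log2 units from mean to peak, ± SE, n = 18) and a fitted ratio of peak to trough of 3.94. These are values on log2(signal + 51.0), which understates changes of dim probe sets. With the array set as a block the amplitude was 0.92 ± 0.09 with a peak at 16.1, and in the first array set alone, with 12 profiles, it was 0.92 ± 0.11 with a peak at 16.1. The pattern was thus present within the first array set. Over all alternatives run, single profiles left out included, the amplitude lay between 0.853 and 1.05.

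**Figure D1:**
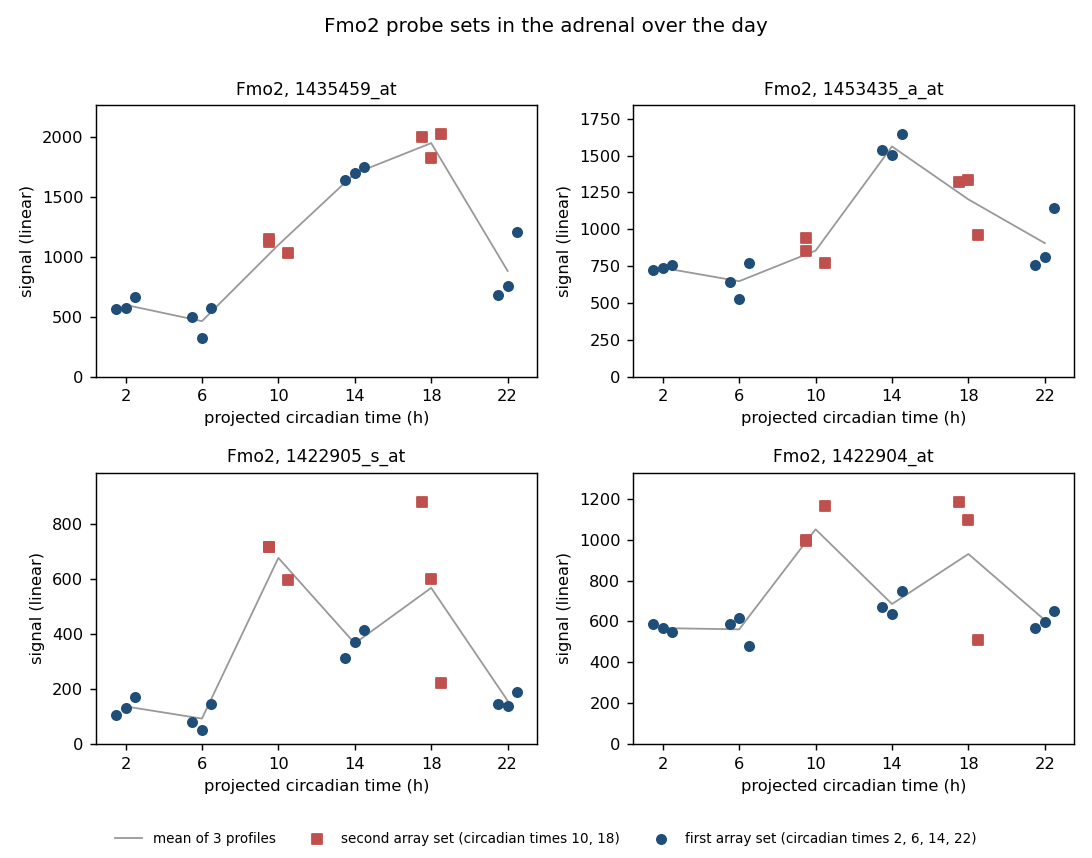
Signals of the 4 Fmo2 probe sets above the filter on low signals (linear scale, y) by projected circadian time (x) in each of the 18 profiles. Squares are the second array set, circles the first, points to the left of a tick are first-cycle profiles, points to the right second-cycle profiles and points on it pairs or profiles of both cycles, and the line joins the means of 3 profiles. In 1435459_at the profiles of circadian times 14 and 18 lie between 1640 and 2019, above those of the other times, while in 1422904_at the second array set is high except for 1 profile at 507.

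The other Fmo2 probe sets did not all follow this pattern. Probe set 1453435_a_at had signals of 722, 737 and 755 at circadian time 2, 641, 529 and 772 at 6, 854, 940 and 771 at 10, 1506, 1537 and 1645 at 14, 1332, 1318 and 959 at 18, and 757, 814 and 1147 at 22. It was highest at circadian time 14, where its 3 profiles did not overlap with those of any other time. Its amplitude was 0.54 ± 0.08 with a peak at 15.9, 0.62 ± 0.07 at 15.7 with the array set as a block, and 0.62 ± 0.08 at 15.6 in the first array set alone. Across the 18 profiles its log2 values had a Pearson r of 0.889 with those of 1435459_at, and of 0.962 after the mean of each array set was subtracted. The profiles share arrays, so these r describe the 2 probe sets and carry no test.

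Probe set 1422905_s_at, whose name marks it as able to hybridize with other transcripts, had signals of 106, 131 and 172 at circadian time 2, 78.6, 51.4 and 146 at 6, 718, 715 and 597 at 10, 371, 313 and 413 at 14, 600, 881 and 222 at 18, and 145, 139 and 187 at 22. It was highest at circadian time 10, then at 18 and 14. Its amplitude was 1.02 ± 0.21 with a peak at 14.2, 0.68 ± 0.17 at 14.3 with the array set as a block and 0.75 ± 0.13 at 15.8 in the first array set alone. Within the first array set this probe set was thus high at the same hours as 1435459_at, and its highest values were those of the second set.

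Probe set 1422904_at separated the array sets more than the hours. It had signals of 586, 569 and 546 at circadian time 2, 587, 617 and 479 at 6, 992, 998 and 1163 at 10, 634, 671 and 750 at 14, 1097, 1186 and 507 at 18, and 569, 599 and 650 at 22. In 5 of the 6 second-set profiles it was above the 12 profiles of the first set, and the exception, with 507, was 78 h replicate 2, the array with the low 5' to 3' Gapdh ratio. Its amplitude was 0.31 ± 0.11 with a peak at 13.5, 0.14 ± 0.09 at 12.9 with the block and 0.15 ± 0.04 at 15.7 in the first array set alone. On the same 78 h array 1422905_s_at read 222, against 600 and 881 in the other profiles of circadian time 18. The part of RNA quality in these readings was not tested. The fifth Fmo2 probe set, 1454005_at, had signals of 1.08 to 81.3, under the filter on low signals of 183, and is not interpreted.

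**Figure D2:**
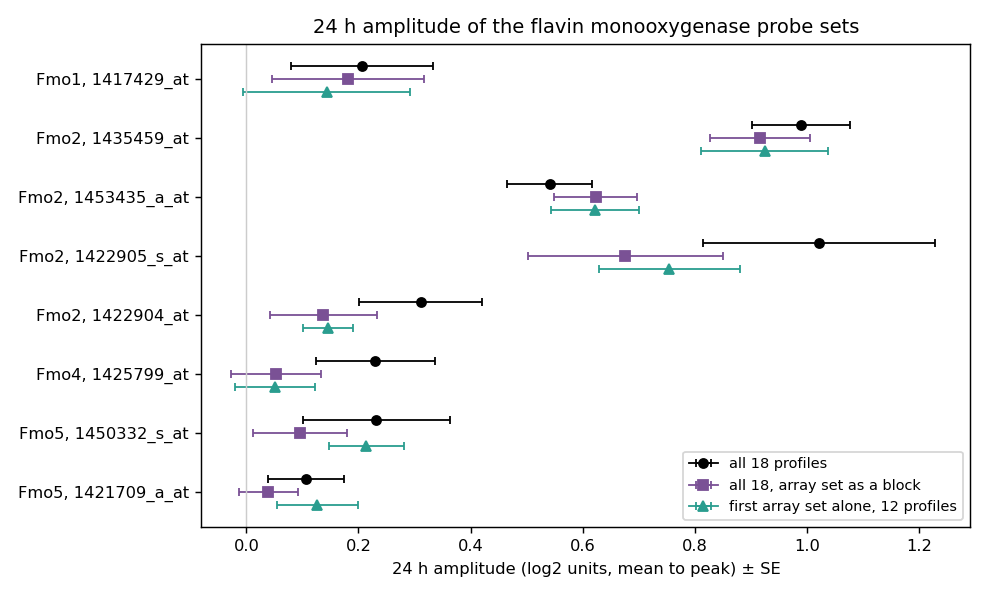
Amplitude of the 24 h cosine (x, log2 units from mean to peak, bars ± SE) for each probe set fitted (y), from all 18 profiles (circles), with the array set as a block (squares) and from the 12 profiles of the first array set alone (triangles). The Fmo2 probe sets 1435459_at, 1453435_a_at and 1422905_s_at are at 0.54 or more in the 3 fits, and the probe sets of Fmo1, Fmo4 and Fmo5 are at 0.23 or less.

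Within the second array set, circadian time 18 can be set against circadian time 10 without a change of set. For 1435459_at the signals were 1822, 1997 and 2019 at circadian time 18, against 1121, 1143 and 1028 at circadian time 10, a difference of 0.80 ± 0.18 on the log2 scale (SE, n = 3 each). For 1453435_a_at the difference was 0.46 ± 0.15. For 1422904_at it was -0.25 ± 0.21 and for 1422905_s_at -0.40 ± 0.32. The first pair of probe sets was thus higher at circadian time 18, and the other pair had the opposite sign with the 78 h array included. On that array 1422904_at read 507 and 1422905_s_at 222. In the other profiles 1422904_at read 1097 and 1186 at circadian time 18, against 992, 998 and 1163 at 10. For 1422905_s_at these signals were 600 and 881, against 718, 715 and 597. The difference without that array was not fitted for this pair.

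Fmo2's hours were compared with those of genes with known daily roles. Of 14 such day markers 11 passed the threshold for a 24 h rhythm (limma, adjusted p of at most 0.05 over 13880 genes), as did 12.8% of all genes tested. Nr1d1, a repressor of the clock, peaked at circadian time 7.3, Dbp, an activator of D-boxes, at 9.6, Per2, a clock repressor, at 13.7, Cry1, another, at 18.1, Nfil3, a repressor of D-boxes, at 18.9, and Arntl, a clock activator, at 22.5. The peak of Fmo2 at 15.9 thus lay between those of Per2 and Cry1. Tsc22d3, a transcript induced by glucocorticoids, peaked at 15.1 with an amplitude of 0.54 ± 0.06. Fkbp5, also induced by glucocorticoids, had an amplitude of 0.26 ± 0.07 and an adjusted p of 0.0565 (limma), and Sgk1, another, had 0.08 ± 0.06 and 0.566. The probe sets used for Tsc22d3 and Dbp are marked for cross-hybridization by their names.

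**Figure D3:**
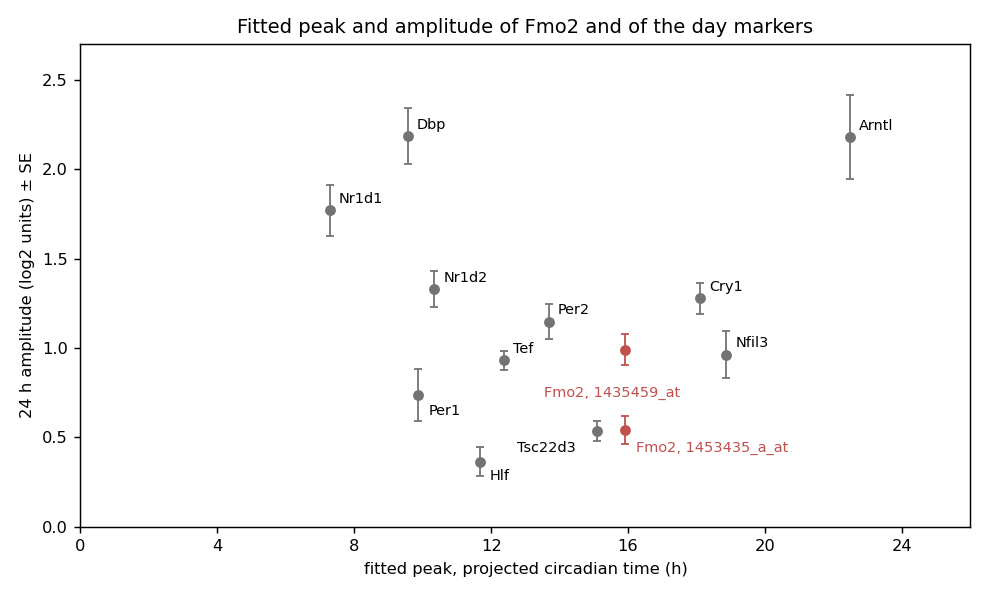
Fitted peak (x, projected circadian time in h) and amplitude (y, log2 units, bars ± SE) of the 11 day markers past the threshold (grey) and of 2 Fmo2 probe sets (red), from 18 profiles each. Both Fmo2 probe sets peak at 15.9, after Tsc22d3 at 15.1 and before Cry1 at 18.1.

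The gene whose log2 values followed 1435459_at most closely over the 18 profiles was Tsc22d3, with a Pearson r of 0.946, and of 0.924 after subtraction of the array-set means. Next came Rcan2, an inhibitor of the phosphatase calcineurin, with 0.927, and Slc43a3, a membrane transporter, and Gm12843, both with 0.917. They were followed by Abcg2, an efflux pump for drugs, with 0.915, Ap1s2, a subunit of a vesicle adaptor, with 0.908, Bmp6, a secreted growth factor, with 0.900, and Ube2g2, a ubiquitin-conjugating enzyme, with 0.897. Their fitted peaks lay between circadian times 14.7 and 16.0. After subtraction of the array-set means, Tsc22d3, Gm12843, Rcan2, Abcg2 and Slc43a3 were again among the 8 closest, now with Prmt7, an arginine methyltransferase (0.893), Baz1b, a chromatin protein (0.891), and Dnaja4, a heat shock protein cofactor (0.879).

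The genes that ran most opposite to Fmo2 were Pgghg, which trims sugars from collagen, with an r of -0.903, Cercam with -0.893, Snapin, a protein of vesicle release, with -0.885, and Armcx5 with -0.873. They peaked between circadian times 3.4 and 4.4. After subtraction of the array-set means the lowest r were those of Wdr45 (-0.899), an autophagy protein, Gstm7 (-0.896), a glutathione transferase, Armcx5 (-0.890) and Xpa (-0.885), a DNA repair protein. All these genes were taken for their likeness or unlikeness, so no test is given, and the profiles share hours and array sets. For 1453435_a_at the closest were Serp1, a protein of the endoplasmic reticulum under stress, with 0.904, Gm12843 with 0.903 and Xbp1, a regulator of that stress response, with 0.897. For 1422904_at they were Snhg10, Sema3f and Rgl3, with 0.966, 0.964 and 0.953, none of which passed the 24 h test (adjusted p of 0.0968, 0.163 and 0.203, limma). Among the genes named for likeness to Fmo2, the probe sets of Tsc22d3, Armcx5, Wdr45, Xbp1, Snhg10 and Sema3f are marked for cross-hybridization.

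Fmo1 had no 24 h rhythm past the threshold, and its profiles spread widely within a circadian time. Probe set 1417429_at had signals of 2773, 2613 and 2238 at circadian time 2, 2075, 3193 and 2081 at 6, 2811, 2366 and 2870 at 10, 2453, 2548 and 4131 at 14, 3677, 2128 and 4932 at 18, and 1797, 2106 and 4690 at 22. The means were in the order 18, 14, 10, 22, 2 and 6, as for Fmo2 but with overlap between each pair of neighbours, which differed by less than the pooled SD. The amplitude was 0.21 ± 0.13 with a peak at 16.6 (limma, adjusted p = 0.435). With the array set as a block it was 0.18 ± 0.13 (adjusted p = 0.603), beside 17.9% of all genes called in that fit, and in the first array set alone 0.14 ± 0.15 (adjusted p = 0.780), beside 12.3%.

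Fmo5 had no 24 h rhythm past the threshold either, and it was higher in the second array set. Its brightest probe set, 1450332_s_at, also marked for cross-hybridization, had signals of 359, 403 and 330 at circadian time 2, 355, 330 and 465 at 6, 577, 509 and 661 at 10, 309, 337 and 346 at 14, 501, 455 and 962 at 18, and 265, 265 and 324 at 22. The second array set thus spanned 455 to 962 and the first 265 to 465, with 1 profile of each in the overlap. On the log2 scale their means were 9.33 ± 0.36 (SD, n = 6) and 8.60 ± 0.20 (SD, n = 12). The amplitude was 0.23 ± 0.13 with a peak at 12.5 (limma, adjusted p = 0.385).

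With the array set as a block the Fmo5 amplitude was 0.10 ± 0.08 and the peak moved to 6.4 (adjusted p = 0.692). In the first array set alone it was 0.21 ± 0.07 with a peak at 7.3 (adjusted p = 0.111). With the block and without 78 h replicate 2, a fit chosen after its values were seen, the amplitude was 0.19 ± 0.05 with a peak at 7.2 and passed the threshold (limma, adjusted p = 0.0398), beside 18.4% of all genes called in that fit. Without that array and with no block it was 0.26 ± 0.09 with a peak at 10.2 (adjusted p = 0.15), so the call needed both changes. In the fit with both, over all probe sets, the second Fmo5 probe set, 1421709_a_at, had 0.05 ± 0.06 (adjusted p = 0.812). On 78 h replicate 2 1450332_s_at read 962, and the summed signal of 5 liver markers was 17037, against 1094 to 7172 in the other 17 profiles. The part of liver transcripts in the Fmo5 signal was not tested.

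The second Fmo5 probe set, 1421709_a_at, had signals of 260, 277 and 231 at circadian time 2, 244, 335 and 251 at 6, 294, 318 and 329 at 10, 253, 254 and 246 at 14, 372, 306 and 332 at 18, and 212, 191 and 292 at 22. It read 332 on the 78 h array, within the range of the other profiles of circadian time 18, whereas 1450332_s_at read 962 there and 501 and 455 in them. Its amplitude was 0.11 ± 0.07 with a peak at 12.6 in a fit over all 27022 probe sets above the filter (adjusted p = 0.475), in which 10.2% were called. With the block it was 0.04 ± 0.05 (adjusted p = 0.866), beside 16% called. The third, 1440899_at, had a mean under the filter, with signals of 126 to 214.

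Fmo4 was dim. Probe set 1425799_at had signals of 111, 132 and 137 at circadian time 2, 129, 189 and 125 at 6, 88.0, 37.4 and 97.2 at 10, 126, 111 and 143 at 14, 73.0, 56.1 and 106 at 18, and 144, 140 and 178 at 22. The second array set, with 37.4 to 106, lay wholly below the first, with 111 to 189. Its mean was under the filter on low signals, so it was tested among the 18193 genes with no filter, of which 8.93% were called. There its amplitude was 0.23 ± 0.11 with a peak at 1.4 (limma, adjusted p = 0.294). With the block, beside 13% of genes called, it was 0.05 ± 0.08 (adjusted p = 0.905), and in the first array set alone 0.05 ± 0.07.

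**Figure D4:**
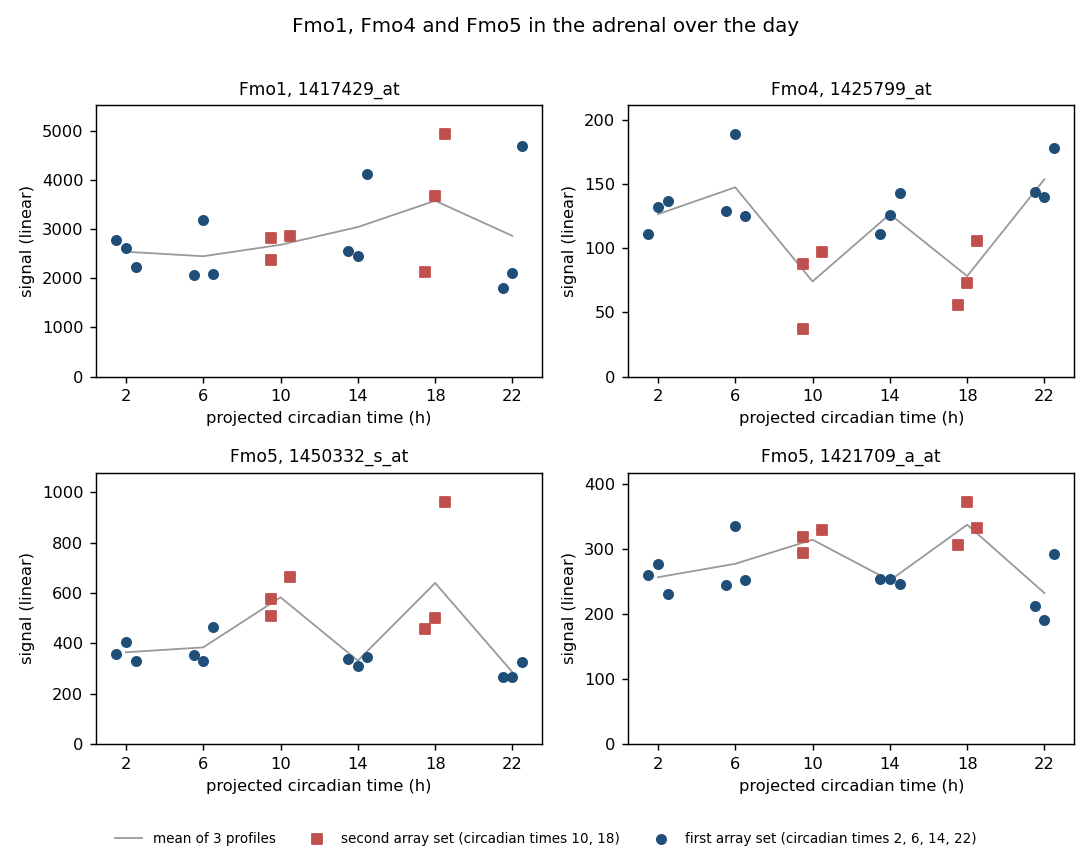
Signals (linear scale, y) of Fmo1, Fmo4 and 2 Fmo5 probe sets by projected circadian time (x) in each of the 18 profiles, with squares for the second array set, circles for the first, and a line through the means of 3 profiles. Points to the left of a tick are first-cycle profiles, points to the right second-cycle profiles and points on it the other profiles. Fmo4 is at most 106 in the second array set and at least 111 in the first, and Fmo1 has single high profiles of the second cycle at circadian times 14, 18 and 22.

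Between circadian times 18 and 10, within the second array set, none of the 3 genes passed the threshold (limma), whereas 21.2% of all genes tested did. Fmo1 had 3677, 2128 and 4932 at circadian time 18, against 2811, 2366 and 2870 at 10, a difference of 0.33 ± 0.32 (adjusted p = 0.513). Fmo5 had a difference of 0.06 ± 0.19 (adjusted p = 0.868), which was -0.25 ± 0.13 without 78 h replicate 2 (adjusted p = 0.2). Fmo4 had 0.06 ± 0.18 (adjusted p = 0.869, genes with no filter, of which 15.9% were called). A p that misses the threshold does not show that the levels were equal.

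The second cycle was compared with the first in the 13 profiles that belong to 1 cycle, 6 of the second and 7 of the first, with circadian time as a factor. No gene of the 13880 passed the threshold for a level difference (limma, 0%, with 1351 genes at an unadjusted p under 0.05), and none for a difference in 24 h pattern (0%, with 325). Fmo2 (1435459_at) had a lowest, median and highest signal of 573, 1117 and 2019 in the second cycle and of 494, 1121 and 1997 in the first. Its level difference was 0.18 ± 0.10 (adjusted p = 0.581) and its difference in 24 h pattern 0.33 ± 0.14 (adjusted p = 1). Neither passed the threshold.

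Fmo1 had a lowest, median and highest signal of 2081, 3501 and 4932 in the second cycle and of 1797, 2366 and 2811 in the first. At circadian time 14 the profile of the second cycle read 4131 and that of the first 2548, at 18 they read 4932 and 2128, and at 22 they read 4690 and 1797. At circadian times 2 and 6 they read 2238 and 2773, and 2081 and 2075, and at 10 the second cycle read 2870 and the first 2811 and 2366. The second cycle thus read higher at circadian times 14, 18 and 22, and lower or about level at 2 and 6. The level difference was 0.50 ± 0.19 (limma, unadjusted p = 0.0281, adjusted p = 0.491), and the difference in 24 h pattern had an amplitude of 0.77 ± 0.16 (unadjusted p = 0.00215, adjusted p = 1), so neither held after adjustment over all genes.

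Fmo5 (1450332_s_at) had a level difference of 0.30 ± 0.12 between the second and the first cycle (limma, adjusted p = 0.491), with 324 to 962 in the second and 265 to 577 in the first. Fmo4 had 0.28 ± 0.11 (adjusted p = 0.559, genes with no filter), with 97.2 to 178 in the second cycle and 37.4 to 144 in the first. The brightest probe sets of the 4 genes thus all had a positive difference, and none passed the threshold. The other Fmo2 probe sets had 0.04 ± 0.11 (1453435_a_at), -0.06 ± 0.26 (1422905_s_at) and -0.14 ± 0.16 (1422904_at), so the sign was not shared within Fmo2 in this fit. The fit includes 78 h replicate 2, a second-cycle array on which 1422905_s_at read 222 and 1422904_at 507. In the first array set alone, with 8 profiles, 1435459_at had 0.32 ± 0.12 and 1453435_a_at 0.24 ± 0.09. There 1422905_s_at had 0.43 ± 0.08 and 1422904_at -0.01 ± 0.09. None passed the threshold over all probe sets.

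A component with a period of 12 h beside the 24 h one passed the threshold in 58 genes (limma, 0.418%), none of them a member. Its amplitude was 0.06 ± 0.13 for Fmo1 (adjusted p = 0.936), 0.05 ± 0.09 for Fmo2 (adjusted p = 0.908) and 0.24 ± 0.12 for Fmo5 (adjusted p = 0.391). For Fmo4 it was 0.11 ± 0.11 (adjusted p = 0.775, genes with no filter, of which 0.181% were called). For the Fmo2 probe set 1453435_a_at, whose mean at circadian time 14 was above that at 18, it was 0.19 ± 0.06 (adjusted p = 0.204 over probe sets).

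Fmo1 moved with markers of fat cells. A whole gland can carry fat from around its capsule, and in such bulk samples fewer cells of a type and less RNA per cell cannot be told apart. Of 9 fat markers 7 were on the array and all 7 were above the filter, among them Adipoq, the hormone of fat cells, with signals of 4837 to 8769. The dimmest, Lep, the gene of leptin, had a lowest signal of 24.3 and a median of 288. Their summed signal was 31304 to 45834 in the second array set and 28051 to 47350 in the first. In the 3 second-cycle profiles with the high Fmo1 signals of 4131, 4932 and 4690 it was 47350, 45834 and 43447, and in the first-cycle profiles of the same hours, with Fmo1 at 2548, 2128 and 1797, it was 36590, 31304 and 28051.

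The relation was computed within each array set on the log2 scale. In the 6 profiles of the second array set Pearson's r was 0.933 (exact permutation p = 0.0069, two-sided) and Spearman's rho 1 (exact permutation p = 0.0028, two-sided, the smallest that 6 profiles can give). In the 12 profiles of the first it was 0.925 (permutation p = 2e-05) and Spearman's rho 0.930 (permutation p = 5e-05). Over the 112 relations computed, of 4 genes with 14 marker lists in 2 array sets, the adjusted p was 0.0972 for Pearson and 0.156 for Spearman in the second set, and 0.00224 and 0.0056 in the first. Without the 2 profiles farthest from the median of the marker sum, r was 0.993 (n = 4) and 0.876 (n = 10). Other lists also had an r of large size with Fmo1, given here for the second set and then the first. Liver markers had 0.938 and -0.079, macrophages 0.928 and 0.092, and zona glomerulosa -0.927 and -0.362. Adrenal cortex markers had -0.864 and -0.658, fibroblasts 0.845 and 0.65, and brown fat 0.752 and 0.677. Endothelium had -0.849 and 0.281, and kidney -0.758 and 0.217. None of these relations passed after adjustment. The part of fat tissue in the level of Fmo1 was not tested.

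**Figure D5:**
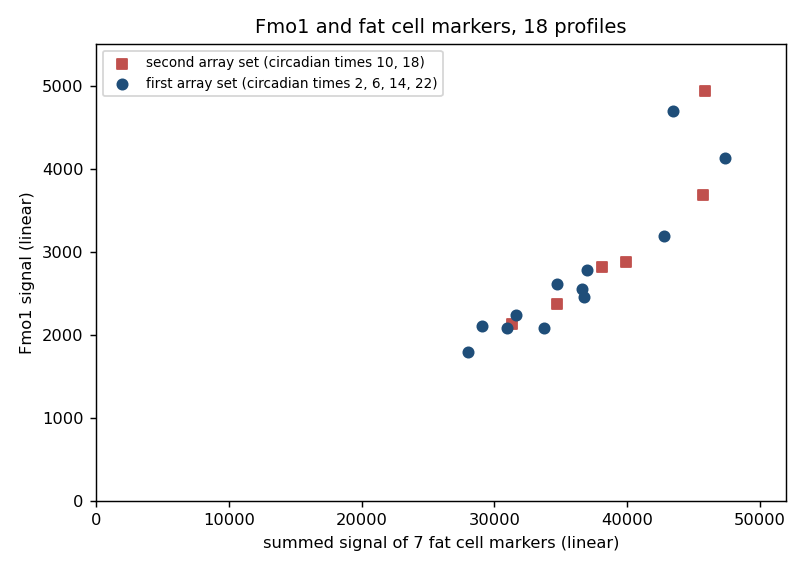
Fmo1 signal (y, linear) against the summed signal of 7 fat cell markers (x, linear) in the 18 profiles, with squares for the second array set and circles for the first. The 5 profiles with a marker sum of 42783 or more have Fmo1 signals of 3193 or more, and the other 13 have 2870 or less.

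The genes most like Fmo1 over the 18 profiles were Rasl12, a small GTPase, with a Pearson r of 0.959, Lama4, a laminin of vessels and fat, with 0.951, and Decr1, an enzyme of fatty acid oxidation, with 0.937. After subtraction of the array-set means they were Rasl12 (0.962), Cdo1, a cysteine dioxygenase (0.958), and Reep6 (0.955). For Fmo5 they were Dglucy, Pigq and Lamtor1, with 0.939, 0.930 and 0.922, and after subtraction 1700016C15Rik (0.891), Dglucy (0.860) and Rgn (0.857), the gene of regucalcin, a liver protein. For Fmo4 they were Krt71 (0.963), Nol6 (0.937) and Lsm12 (0.925). No gene on the lists for Fmo1, Fmo4 and Fmo5 passed the 24 h test. The probe set of Pigq is marked for cross-hybridization.

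For Fmo2 no marker relation of the 112 passed after adjustment. The nearest was the sum of 5 kidney markers in the first array set, with an r of 0.794 (permutation p = 0.0023, adjusted p = 0.0633, n = 12), a rho of 0.762 (permutation p = 0.0053, adjusted p = 0.156) and an r of 0.661 without the 2 farthest profiles. In the second set that r was -0.445 (exact permutation p = 0.48, n = 6). Of the 5 kidney markers only 2, Kap and Slc34a1, were above the filter on low signals. With fat markers the r of Fmo2 was 0.188 in the second set (exact permutation p = 0.68, n = 6) and 0.345 in the first (permutation p = 0.27, n = 12). With liver markers the r of Fmo5 was 0.681 in the second set (exact permutation p = 0.11, n = 6) and 0.523 in the first (permutation p = 0.079, n = 12). Without the 2 farthest profiles these were 0.316 and 0.282. Of the 5 liver markers 3 were above the filter. Other lists had an r of larger size with Fmo5 in either or both sets, in the same order of sets. They were zona glomerulosa (-0.922 and -0.807), red blood cells (-0.636 and 0.801), smooth muscle (-0.958 and -0.362) and lung (0.923 and 0.271). Further ones were kidney (-0.889 and -0.279), fibroblasts (0.863 and 0.405) and macrophages (0.763 and 0.364). Adrenal cortex (-0.759 and -0.272) and brown fat (0.749 and 0.466) were also among them. None passed after adjustment. Of 3 lung markers Sftpb had signals of 393 to 582, Sftpc of 369 to 483 and Scgb1a1, which was under the filter, of 15.5 to 71.6. Their sum was 821 to 1022 in the second set and 849 to 999 in the first.

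The genes around the enzymes were counted by list, beside 12.8% of all genes called and a median amplitude of 0.12 over them. Of 12 tested genes of NADPH supply 2 passed the 24 h test, with a median amplitude of 0.09. They were Me1, the cytosolic malic enzyme, with 0.12 ± 0.02 and a peak at 1.4 (limma, adjusted p = 0.0101), and Nadk, which makes NADP from NAD, with 0.11 ± 0.03 and a peak at 17.7 (adjusted p = 0.0472, and 0.0525 with the array set as a block). Of 5 tested genes of flavin supply none passed, and the lowest adjusted p was 0.0677 for Slc52a3, a riboflavin transporter, which had 0.21 ± 0.06 with a peak at 10.7. Rfk and Flad1, which make FMN and FAD, had 0.05 ± 0.04 and 0.06 ± 0.06.

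Of 17 tested genes for partners and fellow oxidases 3 passed, 1 with a peak between 12 and 24 and 2 with a peak between 0 and 12, and the median amplitude was 0.17. They were Maoa, which oxidizes amine transmitters (0.30 ± 0.06, peak 10.95), Cyb5r1, a cytochrome b5 reductase (0.34 ± 0.08, peak 0.04), and Cyp2e1, a cytochrome P450 of small solvents (0.33 ± 0.08, peak 14.1, adjusted p = 0.0573 with the block). With the array set as a block Cyp26b1 of that list passed and Cyp2e1 did not. Cyp26b1 had 0.34 with a peak at 15.7 there (limma, adjusted p = 0.00573). It also passed in the first array set alone (adjusted p = 0.0117), and had 0.17 ± 0.17 without the block (adjusted p = 0.72). Of 14 tested conjugation enzymes 6 passed, 4 with a peak in the projected night and 2 in the day, and the median amplitude was 0.25. With the array set as a block 4 passed, since the glutathione transferases Gsta4 and Gstt1 had adjusted p of 0.0691 and 0.0631 (limma). Sult1a1, a sulfotransferase, peaked at 16.3 with 0.38 ± 0.07 and Gsta3, a glutathione transferase, at 18.1 with 0.45 ± 0.10 (adjusted p = 0.122 in the first array set alone). Gstm2, another glutathione transferase, peaked at 4.4 with 0.25 ± 0.04.

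Of 9 tested genes that make, reduce or oxidize thiols and sulfides 1 passed, Gclc, a subunit of the enzyme that limits glutathione synthesis (0.13 ± 0.03, peak 11.9, limma adjusted p = 0.0265). Of 12 tested regulators of drug metabolism 1 passed, Nfe2l2, the activator of antioxidant genes (0.18 ± 0.05, peak 13.0, adjusted p = 0.0356, and 0.117 with the block). With the block the 1 that passed was Keap1, with 0.15 and a peak at 8.1 (limma, adjusted p = 0.0429, against 0.0579 without the block). Without the block Nr3c1, the glucocorticoid receptor, had 0.10 ± 0.06 (adjusted p = 0.383) and Ahr, a receptor for aromatic pollutants, 0.03 ± 0.05 (adjusted p = 0.892).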

How the data were processed

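The deposited values were probe set intensity values of Affymetrix mouse arrays, on a linear scale, from the authors. Their summarisation and scaling are not given in the sources used here. The log2 medians of the arrays ran from 8.14 to 8.32, and no normalization was added. An offset of 51.0, the 10th percentile of the deposited values, was added before taking log2. Of 45101 probe sets 64 were controls, 34958 carried 1 gene symbol, 932 carried several, and 9211 have no entry in the annotation table. A filter at the 40th percentile of the mean (signal 183) and the choice of the brightest probe set of each gene left 13880 genes.

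The 24 h test was limma's moderated F test on cosine and sine (version 3.58.1, R 4.3.3, lmFit and eBayes with trend), adjusted by Benjamini-Hochberg over all genes with a threshold of 0.05, and tested on simulated data. Level differences between cycles, circadian time 18 minus 10, the interaction of cycle and cosine, and a 12 h component were tested in the same way. Correlations with marker sums had exact permutation tests for 6 profiles and 100000 permutations for 12. The number of arrays limits the precision.

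The members, lists and array sets were chosen with earlier results of these data known. Named genes were all member probe sets, the genes most like or unlike each by Pearson's r, and from each list up to 5 genes with the lowest p, of which some are printed, together with genes of known roles such as Rfk, Flad1, Nr3c1 and Ahr, which were picked after their values were seen. Cyp26b1 was named because it passed in alternative fits. Marker lists without a value in the text gave no adjusted relation to a member. Alternatives were other offsets, no filter, quantile normalization, all 24 arrays, the array set as a block, parts of the arrays, and leaving out profiles.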

Additional observations from a re-analysis of the deposited data

How the results depend on the processing

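Fmo2's 24 h amplitude lay between 0.853 and 1.05 in the 11 other processing settings, and the Fmo1 and Fmo4 amplitudes did not pass the threshold in any setting run, with 0.0798 to 0.21 and 0.051 to 0.352. Fmo5 had an amplitude of 0.0959 with its peak over 6 h away under the array-set block, and one of 0.186 past the threshold under the block without 78 h replicate 2. Further fits left out single profiles in turn, all arrays of replicate 1, or all arrays of replicate 2. Their amplitudes were 0.185 to 0.292 for Fmo4, 0.081 to 0.277 for Fmo1 and 0.188 to 0.303 for Fmo5. For Fmo1 the 0.081 came without replicate 1, and single profiles left out gave 0.13 to 0.277.

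The difference between circadian times 18 and 10 had no stable sign in 3 genes, none of which passed the threshold. It was -0.15 for Fmo1 and -0.146 for Fmo5 without the profiles with a high Acta1 signal, a fit in which each of these times has 1 profile that is assumed to vary like the others. Without 78 h replicate 2 it was -0.0836 for Fmo4 and -0.254 for Fmo5. Single profiles left out gave -0.168 to 0.204 for Fmo4, -0.254 to 0.247 for Fmo5 and 0.0654 to 0.662 for Fmo1.

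The difference in 24 h pattern between cycles was 0.0593 for Fmo5 in the first array set alone, with its phase turned, and single profiles left out gave 0.0644 to 0.416 for Fmo4 and 0.197 to 0.666 for Fmo5. For the 12 h component they gave 0.0285 to 0.175 for Fmo1 and 0.0168 to 0.0805 for Fmo2. None of these passed the threshold.

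The number of rhythmic genes was 1777. It was 4196 with all 24 arrays taken as independent and 4127 with a replicate block on them, 955 with means of the 12 time points, and 1018 without the profiles with a high Acta1 signal, and 395 and 536 without replicate 1 and without replicate 2. Single profiles left out gave 1178 (without 46 h replicate 1) to 2210 (without the pair of 50 h replicate 1 and 74 h replicate 2). The replicate numbers do not pair samples, since near-copies join arrays of different numbers. Rhythmic genes of NADPH supply numbered 1 under the block, in the first array set, without probe sets marked for cross-hybridization, without 78 h replicate 2 and without the high Acta1 profiles. Without those profiles 0 partners and oxidases, 3 conjugation enzymes, 0 thiol genes and 0 regulators passed. Thiol genes numbered 2 under the block and without 78 h replicate 2, and regulators 0 in the first array set. Beside these counts, 2482 of all 13880 genes passed under the block, 1709 in the first array set and 1682 without 78 h replicate 2. Without the marked probe sets 1648 of 13484 passed. The cause of these shifts was not tested. The fit without the high Acta1 profiles holds 14 profiles in place of 18. The 12 h component cannot be fitted beside the 24 h one in the first array set, which holds 4 circadian times.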
